A study of Mus musculus with 4 samples.

Results

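The comparison of 11R-VIVIT with untreated MCT cells covers all 84 genes that a mouse nephrotoxicity PCR array measured besides the reference gene Actb (beta-actin), so every gene of the table is a member. MCT is a mouse kidney tubule epithelial cell line, labelled as convoluted tubule. One culture condition was 1 μM 11R-VIVIT and the other was no treatment, both in the same serum-containing medium, with 1 sample each out of 4 samples in the series. The remaining samples were cyclosporine A (CsA) at 10 μg/ml and the p38 inhibitor SB203580 at 10 μM. The general methods of the study give 24 h for such treatments. No vehicle or control peptide is among the labelled samples, and the array carried 0 of the 10 NFAT family and calcineurin subunit genes in the mouse annotation, so it holds no direct readout of NFAT itself.

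NFAT (nuclear factor of activated T cells) proteins are transcription factors that wait in the cytoplasm in a phosphorylated state. When calcium rises, the phosphatase calcineurin docks on them, removes phosphates and so lets them enter the nucleus. CsA blocks the phosphatase as a whole, whereas VIVIT is a short peptide that occupies the docking site for NFAT on calcineurin, and the 11R part is a run of arginines that carries it into cells. The study used it to ask whether blocking NFAT alone acts on the genes that mark nephrotoxicity.

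PCR arrays report the threshold cycle (Ct), the cycle at which the product becomes visible, so a lower Ct means more transcript. Actb had a Ct of 18.12 untreated and 18.13 with the peptide, which left the reference almost identical between the samples. Over the other genes the Ct spanned 19.2 to 36.3 in untreated cells and 16.96 to 36.3 with the peptide. The log2 change given below is the difference in Ct between untreated and treated cells after subtraction of Actb, so 1 unit is a 2-fold difference and a positive value is a higher level with 11R-VIVIT. A Ct of 35 or later was set to 35, and a change that rests on it is a bound ("at least" or "at most"). With 1 sample a side there is no replicate error, no test and no p-value, so "higher" and "lower" describe these samples only.

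Of the labelled tubule, the proximal tubule markers reported here amplified late in untreated cells. The organic anion transporter Slc22a6 had a Ct of 33.03 and the creatine synthesis enzyme Gatm 32.8. Of the distal markers, Egf had a Ct of 28.9 and Calb1 (calbindin) was not detected. The mesenchymal markers Vim, Fn1 and Cd44 had a Ct between 22.20 and 24.01. Assays differ in efficiency, so these cycles show detection and not the order of the genes.

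Most array genes stood close to untreated cells. Of the 84 genes, 51 (60.7%) were measured in both samples and lay within 1.5-fold, 13 were at least 1.5-fold higher with 11R-VIVIT and 9 at least 1.5-fold lower. A further 3 had a bound inside 1.5-fold, which leaves them undetermined, and 8 were detected in neither sample. As shares of the 76 genes with a value or bound, the higher genes were 17.1% and the lower genes 11.8%, together 28.9% (22 genes). A 2-fold line was passed by 7 genes (9.21%), with Mt1a, Igfbp3, Ctss and Cyp2c11 on the higher side (5.26%) and Atf3, Cxcl10 and Cd24 on the lower side (3.95%). With a Ct limit of 32 in place of 35 only Mt1a was at least 2-fold higher, and with an amplification base of 1.9 in place of 2 only Atf3 was at least 2-fold lower, with -0.96 for Cd24 and at most -0.98 for Cxcl10. Over the 70 genes measured in both samples, the median log2 change was -0.04, with quartiles of -0.29 and 0.24, and the median size of a change was 0.27. Among these 70 genes, 32 lay above untreated cells and 38 below, and 13 lay within 0.1 log2 units of no difference.

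The 1.5-fold line fell into a gap in the values. Just inside it were Bhmt (betaine-homocysteine methyltransferase), with a log2 change of 0.48, and Sod2 (mitochondrial superoxide dismutase), with -0.47. Just outside it were Klk1b3, a kallikrein-related peptidase, with -0.66 and, on the higher side, Havcr1 with 0.67. No measured gene lay between 1.40-fold and 1.58-fold, so a line anywhere between these gives the same genes.

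**Figure D1:**
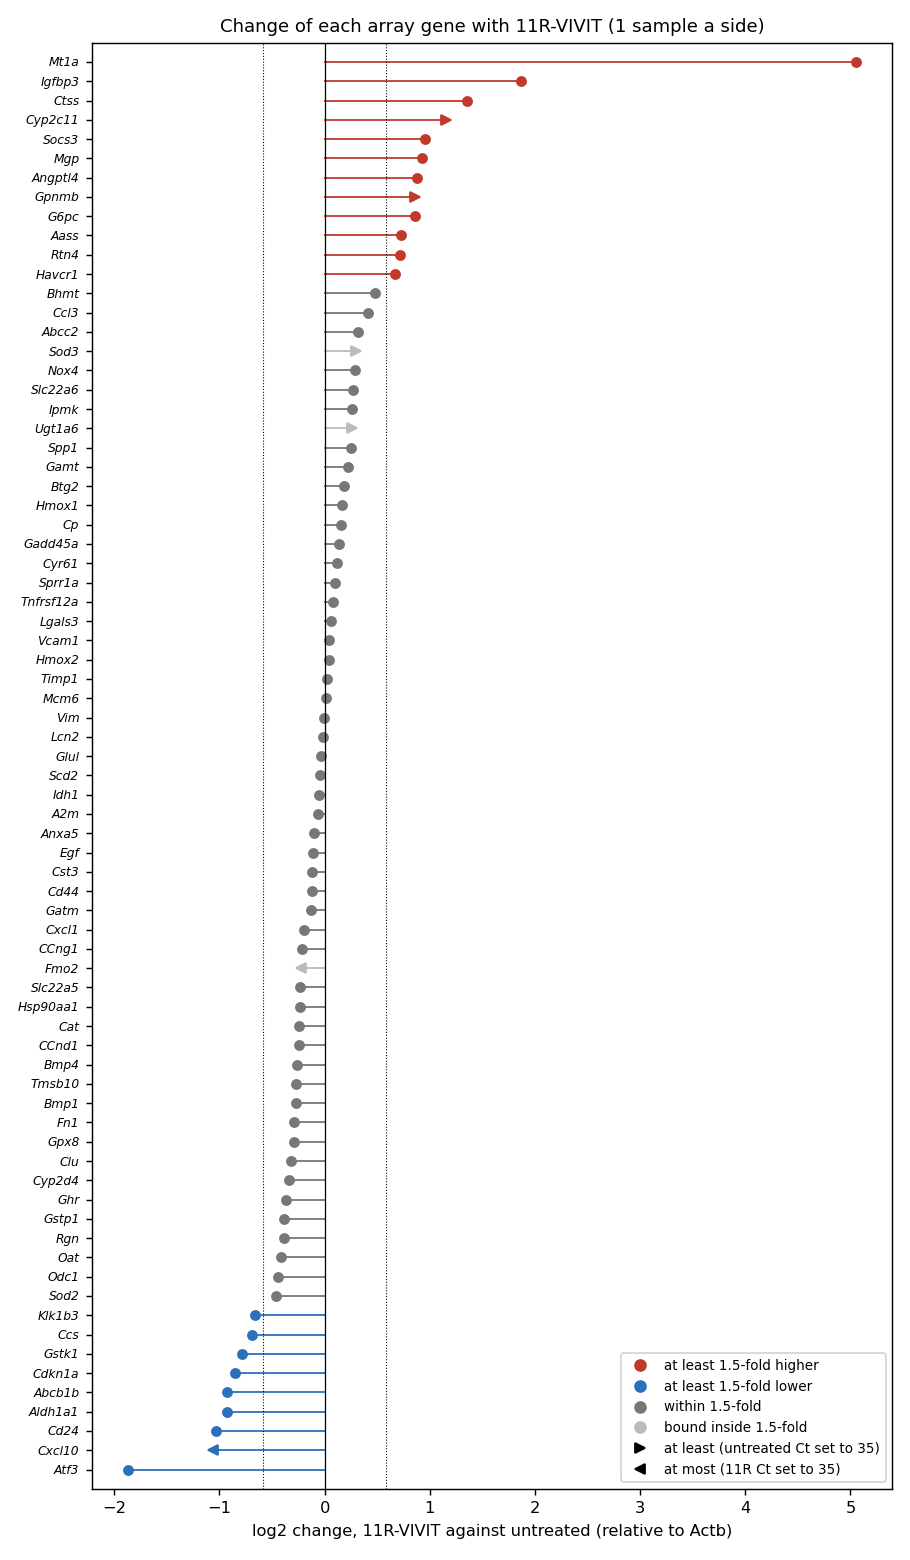
Log2 change with 11R-VIVIT against untreated cells (x axis, relative to Actb) for 74 of the 76 genes with a value or bound (y axis, ranked). Dots are measured changes, arrowheads are bounds and dotted lines mark 1.5-fold. Mt1a at 5.05 stands far above the next gene, Igfbp3 at 1.87, and Atf3 at -1.87 is the lowest.

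The largest difference was that of Mt1a. Its Ct went from 22.0025 untreated to 16.96 under the peptide, a 33.2-fold higher level (log2 change 5.05). In the samples that do not enter this comparison, the Ct was 22.1 with CsA and 20.9 with SB203580, so the 11R-VIVIT sample was the highest of the 4 and stood 4.24 log2 units above the nearest of them relative to Actb. By its name the assay would measure a metallothionein, a small cysteine-rich protein that binds zinc and copper. The mouse annotation lists Mt1a only as a synonym of Polr2k, an RNA polymerase subunit, so the gene behind this assay is not settled. A second metallothionein assay is not among the 84 genes.

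Most of the other antioxidant and metal-binding genes stood near untreated cells. Of the 11 genes of this group, 7 lay within 1.5-fold, beside 60.7% of the 84 genes over the array. Mt1a alone was higher and Ccs alone was lower. Heme oxygenase 1 (Hmox1), the inducible enzyme of heme breakdown, had a Ct of 28.17 untreated and 28.02 with the peptide (log2 change 0.16). The constitutive form Hmox2 had 0.04, catalase (Cat) -0.24, the plasma copper carrier ceruloplasmin (Cp) 0.16 and the superoxide-producing oxidase Nox4 0.29. Ccs, the copper chaperone that loads superoxide dismutase 1, had a Ct of 24.31 untreated and 25.02 with 11R-VIVIT (-0.69), and the peroxidase Gpx8 had -0.29. The secreted superoxide dismutase Sod3 was at least 0.30 higher, with a Ct of 35.6 untreated and 34.7 treated, and Nqo1 was detected in neither.

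The lowest value among the genes of stress transcription and cell cycle, and on the array, was that of Atf3, a transcription factor induced by many stresses. Its Ct was 23.4 untreated and 25.3 treated (log2 change -1.87), so untreated cells had a 3.65-fold higher level. Both Ct values are early. The CsA sample (22.9) and the SB203580 sample (23.7) lay nearer to untreated cells, and the 11R-VIVIT sample was 1.26 log2 units below the nearest of the 4. Cdkn1a, the cyclin-dependent kinase inhibitor p21, had a Ct of 25.6 untreated and 26.4 with the peptide (-0.85). Rtn4 (Nogo), a protein that shapes the endoplasmic reticulum, was 1.64-fold higher, with a Ct of 26.4 and 25.7.

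Over the array, 72.9% of the genes measured in both samples lay within 1.5-fold. In this group the other 7 of the 10 genes did so. They were the cyclins CCnd1 (log2 change -0.25) and CCng1 (-0.22), the DNA damage response genes Gadd45a (0.13) and Btg2 (0.18), the replication helicase subunit Mcm6 (0.02), the chaperone Hsp90aa1 (-0.23) and the polyamine enzyme Odc1 (-0.45). Cdkn1a, Gadd45a, Btg2 and CCng1 are among the known p53 targets, and of these Cdkn1a alone passed 1.5-fold. This list was not set beforehand and may leave out other p53 targets on the array.

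Among the tubular injury markers, 5 of 6 lay within 1.5-fold, beside 72.9% of the genes measured in both samples over the array. Lcn2 (NGAL), which injured tubules release, had a Ct of 27.1 and 27.2 (log2 change -0.02). Clusterin (Clu) had a Ct of 30.002 and 30.33 (-0.32) and osteopontin (Spp1) 30.01 and 29.77 (0.25). The filtration marker cystatin C (Cst3) had -0.12 and the protease inhibitor Timp1 0.02. Havcr1, the gene of the injury marker KIM-1, was 1.59-fold higher, with a Ct of 31.0 untreated and 30.3 with 11R-VIVIT. Its Ct was 30.1 with SB203580 and 32.8 with CsA, so the 11R-VIVIT value was close to the SB203580 sample, 0.08 log2 units away relative to Actb.

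Tnfrsf12a encodes Fn14, the receptor of the cytokine TWEAK and the surface marker on which the study is built. Its Ct was 22.15 untreated and 22.09 treated, a log2 change of 0.08. Tnfrsf12a belongs to the group of cytoskeleton, repair and surface genes, in which 7 of 10 lay within 1.5-fold, 0 were higher and 1 was lower. Over the array, 60.7% of the 84 genes lay within 1.5-fold. Of those with a value or bound, 17.1% were higher and 11.8% lower. Vimentin (Vim), an intermediate filament protein, had a Ct of 23.2 in both samples (log2 change -0.004). Small differences were also seen for the hyaluronan receptor Cd44 (-0.12), the phosphatidylserine-binding protein Anxa5 (-0.10), the actin-sequestering peptide Tmsb10 (-0.27), the cornified envelope protein Sprr1a (0.09) and the calcium-binding protein Rgn (-0.39). Cd24, a surface glycoprotein of progenitor and epithelial cells, was the exception, with a Ct of 23.98 untreated and 25.03 with 11R-VIVIT (-1.03). Calb1 and the ubiquitin hydrolase Uchl1 were detected in neither sample.

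The group of chemokines, adhesion and acute phase genes had members past 1.5-fold in both directions, with 3 higher and 1 lower of the 9 with a value or bound, beside 17.1% and 11.8% over the array. Cxcl10, a chemokine that draws activated T cells, had an untreated Ct of 33.9 and crossed the limit with 11R-VIVIT at 35.03, which makes its log2 change at most -1.06. Socs3, which restrains JAK-STAT signalling from cytokine receptors, was 1.94-fold higher, with a Ct of 27.7 untreated and 26.8 with the peptide. The lysosomal protease cathepsin S (Ctss) was 2.55-fold higher (log2 change 1.35), with a Ct of 34.36 and 33.025. Gpnmb, a glycoprotein of macrophages and stressed epithelium, was at least 0.86 higher, from a Ct of 35.2 and 34.1.

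Genes of leukocyte recruitment and acute phase otherwise stood near untreated cells. The neutrophil chemokine Cxcl1 had a Ct of 21.8 and 22.0 (log2 change -0.19), the macrophage chemokine Ccl3 33.43 and 33.03 (0.41) and the adhesion molecule Vcam1 33.2 in both (0.05). Galectin-3 (Lgals3) had 0.06 and the protease inhibitor A2m -0.06, while fibrinogen beta (Fgb) was detected in neither. Ctss, Ccl3 and Gpnmb are also the leukocyte markers on the array. All 3 were late in both samples, from 33.43 to 35.22 untreated and from 33.025 to 34.15 treated, and all 3 values lay above 0, with Ccl3 inside 1.5-fold. Whether other cells had a part in these values was not tested.

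Of 10 of the genes that the study names for inflammation, fibrosis and kidney disease (A2m, Cat, Ccl3, Cd44, Cxcl10, Fgb, Nox4, Rgn, Spp1 and Vcam1), 8 were measured in both samples, with log2 changes from -0.39 to 0.41. All 8 lay within 1.5-fold, Cxcl10 was lower by its bound and Fgb had no value. The study chose these genes on these samples, so their position is no independent evidence.

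In the matrix and growth factor group, 6 of 10 genes lay within 1.5-fold, 2 were higher and 1 was lower, beside 17.1% and 11.8% of genes over the array. Igfbp3, which binds insulin-like growth factors outside the cell, was 3.64-fold higher (log2 change 1.87), with a Ct of 34.5 untreated and 32.7 with 11R-VIVIT. Mgp (matrix Gla protein), an inhibitor of calcification, had a Ct of 34.97 and 34.1 (0.93). Both sets of values are late, and the untreated Ct of Mgp lay just under the limit of 35. Klk1b3 had a Ct of 33.8 and 34.4. Fibronectin (Fn1) had a Ct of 22.2 and 22.5 (log2 change -0.29), the morphogen Bmp4 -0.26 and the procollagen protease Bmp1 -0.27. Cyr61, a matricellular protein, had 0.12, Egf -0.11 and the growth hormone receptor Ghr -0.36, while Igfbp1 was detected in neither.

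Of the 11 transporters and xenobiotic enzymes reported here with a value or bound, 3 were at least 1.5-fold lower and 1, Cyp2c11, was higher, where the array shares were 11.8% and 17.1%. Abcb1b, a P-glycoprotein efflux pump, had a Ct of 31.8 untreated and 32.7 with 11R-VIVIT (log2 change -0.93). Aldh1a1, which makes retinoic acid from retinal, had a Ct of 31.1 and 32.1 (-0.93), and its level was higher than untreated in the CsA sample (1.02) and the SB203580 sample (0.95). Gstk1, a glutathione transferase of mitochondria and peroxisomes, had a Ct of 30.6 and 31.4 (-0.79). The other 3 of the 4 transporters reported here lay within 1.5-fold, with 0.31 for the efflux pump Abcc2, 0.27 for Slc22a6 and -0.23 for the carnitine transporter Slc22a5. Gstp1, another glutathione transferase, had -0.38 at a Ct of 22.4 and 22.8.

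The cytochrome P450 assays carried symbols that the mouse annotation does not list, so their genes are not settled. Cyp2c11 was at least 1.16 higher, from a Ct of 35.04, just past the limit, to 33.9, and Cyp2d4 had -0.34. Of the 8 xenobiotic enzymes, 4 were measured in both samples, and these lay below untreated cells with a median of -0.59. Over the array 38 of the 70 genes measured in both samples lay below untreated cells, and the median of the 70 was -0.04. The glucuronosyltransferase Ugt1a6 (at least 0.26) and the oxygenase Fmo2 (at most -0.23) were undetermined, and Ugt1a1 was detected in neither, with an untreated Ct at the limit.

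Of the 4 genes of the lipid, glucose and NADPH group reported here, 2 were higher and 2 lay within 1.5-fold, where 17.1% of genes over the array were higher. Angptl4, a fasting-induced inhibitor of lipoprotein lipase, was 1.84-fold higher, with a Ct of 29.1 untreated and 28.2 with 11R-VIVIT, and G6pc, the last enzyme of gluconeogenesis, was 1.82-fold higher (33.1 and 32.2). The NADP-dependent isocitrate dehydrogenase Idh1 (log2 change -0.05) and the fatty acid desaturase Scd2 (-0.05) stood at the untreated level. Angptl4 was higher still with SB203580 (1.77) and with CsA (5.14).

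Of the 6 enzymes of amino acid and creatine metabolism, 5 lay within 1.5-fold, beside 72.9% of the genes measured in both samples over the array. Aass, the first enzyme of lysine degradation, was 1.65-fold higher, with a Ct of 34.3 and 33.6. The creatine synthesis enzymes Gamt (0.22) and Gatm (-0.13), glutamine synthetase (Glul, -0.03) and ornithine aminotransferase (Oat, -0.41) were nearer to untreated cells. The inositol phosphate kinase Ipmk, in none of the groups, had 0.26, and the vitamin D carrier Gc was detected in neither sample.

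**Figure D2:**
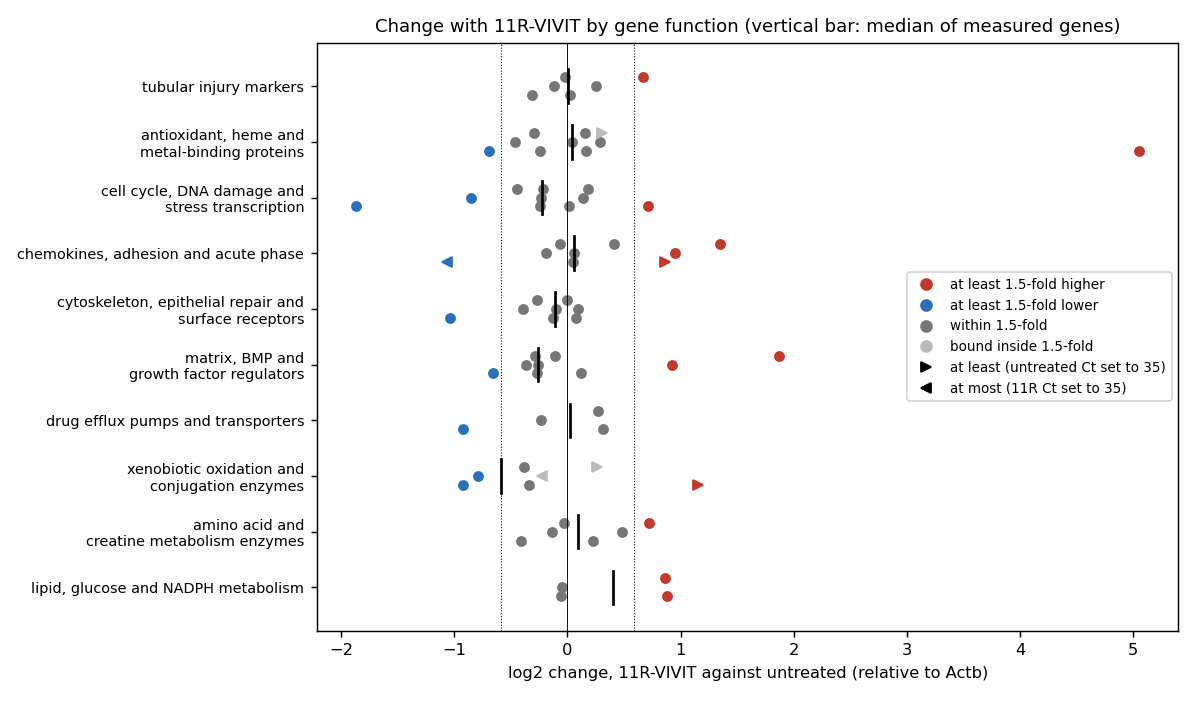
Log2 change with 11R-VIVIT (x axis, relative to Actb) of the genes reported here with a value or bound in 10 functional groups (y axis). Each symbol is 1 gene, arrowheads are bounds, the vertical bar is the median of the measured genes and dotted lines mark 1.5-fold. The tubular injury markers sit between -0.32 and 0.67, and the lipid, glucose and NADPH group has 2 of 4 genes to the right of 1.5-fold.

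Sorted by the mean Ct of both samples, 24 measured genes lay under cycle 25, 18 from 25 to under 30, and 28 at 30 or later. The share within 1.5-fold was 83.3% in the early range (20 genes), 72.2% in the middle (13) and 64.3% in the late range (18). The median size of the log2 change was 0.24, 0.23 and 0.35 in this order. Sorted by the mean Ct of the CsA and SB203580 samples, the shares within 1.5-fold were 76.9%, 80.0% and 62.5%. The median sizes were then 0.25, 0.23 and 0.38. The late range had the lowest share by either sorting, while the order of the early and middle ranges depended on it. A late Ct rests on few starting molecules, and the error of a single well is unknown here.

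The sign of the changes also differed along the cycles. Under cycle 25, 19 of 24 genes lay below untreated cells and the median log2 change was -0.21. From 25 to under 30, 8 of 18 lay below (median 0.09), and at 30 or later 11 of 28 (median 0.10). When the genes were sorted by their Ct in the CsA and SB203580 samples, which do not enter the comparison, the medians were -0.16, 0.01 and 0.19. By that sorting, 3 of the 26 genes under cycle 25 were at least 1.5-fold higher and 3 at least 1.5-fold lower. By the mean Ct of the untreated and 11R-VIVIT samples, 3 early genes were lower (Atf3, Cd24 and Ccs) and Mt1a alone was higher. Of the 13 genes on the higher side, 8 had a mean Ct of 30 or later, among them both that rest on a bound. Among genes measured in both samples, 6 of 11 higher and 4 of 8 lower genes were that late, beside 28 of all 70. The higher genes before cycle 30 included Mt1a, Socs3, Angptl4 and Rtn4.

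**Figure D3:**
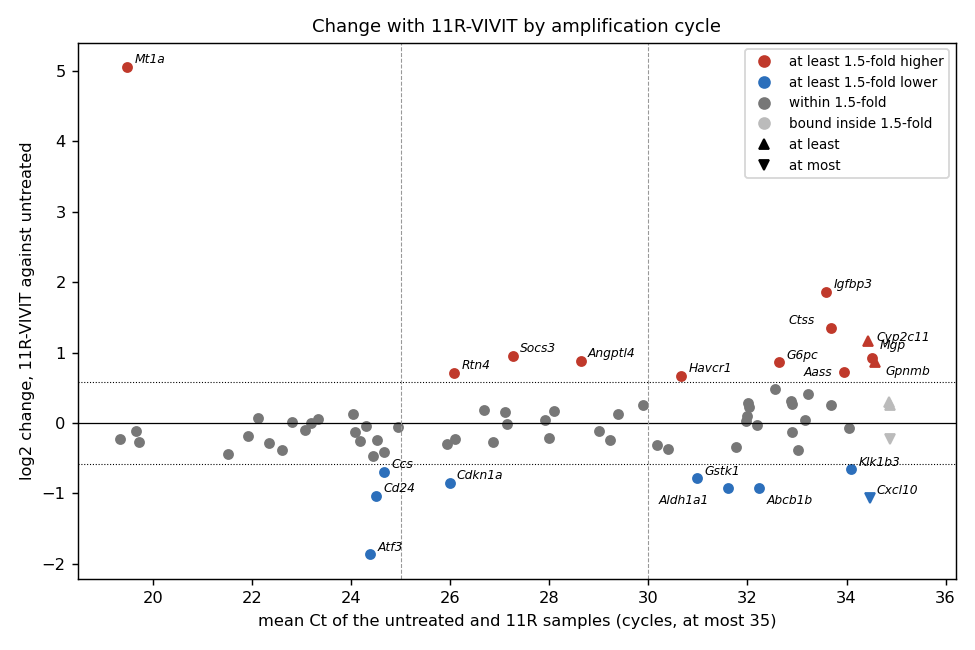
Log2 change with 11R-VIVIT (y axis, relative to Actb) against the mean Ct of the untreated and 11R samples (x axis, cycles) for 74 of the 76 genes with a value or bound, 1 symbol a gene, triangles for bounds. Dotted lines mark 1.5-fold and dashed lines cycles 25 and 30. Of the 24 early genes, 19 lie below 0, and the median size of a change is 0.35 from cycle 30 on.

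A difference between single samples can come from either of them, so the CsA and SB203580 samples were set beside each gene past 1.5-fold. These genes were chosen by the distance between the 11R-VIVIT and untreated samples. That choice alone favors an edge position for either sample, and the source of a difference was not tested. For 9 of these 22 genes the 11R-VIVIT sample alone lay at the edge of the 4 samples, with untreated cells among the others. They were Mt1a, Socs3, G6pc and Havcr1 on the higher side and Atf3, Cxcl10, Aldh1a1, Abcb1b and Klk1b3 on the lower side. For another 9 genes the untreated sample alone lay at the edge, so that all treated samples stood on the same side of it. Among them were Ctss, Angptl4, Rtn4 and Aass on the higher side and Cd24, Cdkn1a, Gstk1 and Ccs on the lower side. These positions depend in part on the reference. With the array median, 11R-VIVIT alone was at the edge for 10 genes and untreated cells alone for 7. With no reference gene the counts were 7 and 10. By Ct alone, Havcr1 was earlier with SB203580 (30.1) than with 11R-VIVIT (30.3).

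For Ctss the 11R-VIVIT sample lay within 0.01 log2 units of the CsA sample and 1.35 above untreated cells. For Cd24 it lay 0.09 from the nearest treated sample and 1.03 below untreated cells. Igfbp3, Mgp and Cyp2c11 had untreated cells at the low edge and 11R-VIVIT at the high edge. Gpnmb had neither at an edge, but this rests on its untreated Ct of 35.2 being set to 35. With that limit untreated cells lay only 0.0064 log2 units from the nearest sample. The treatments share the untreated sample, so a deviation of that sample would appear in every comparison with it. Among the 51 genes within 1.5-fold, the 11R-VIVIT sample alone was at the edge for 18 and the untreated sample alone for 17.

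**Figure D4:**
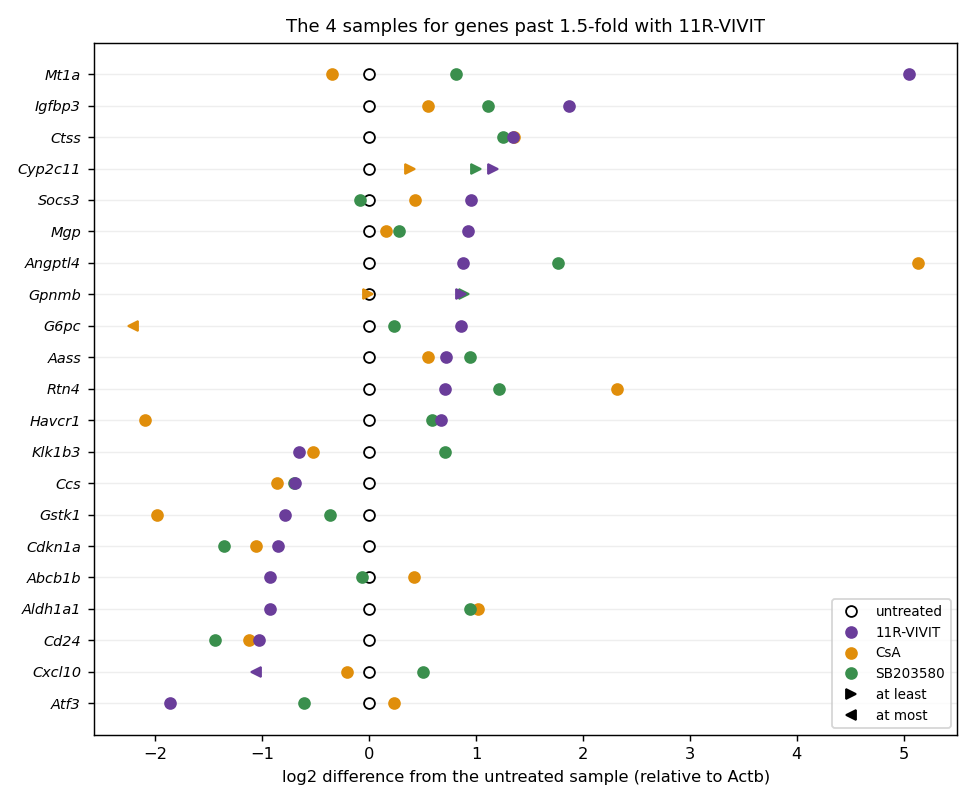
Log2 difference from the untreated sample (x axis, relative to Actb, open circle at 0) for 21 of the 22 genes past 1.5-fold with 11R-VIVIT (y axis), with CsA and SB203580 beside it. Arrowheads are bounds, and each symbol is 1 sample. The 11R-VIVIT symbol of Mt1a, Atf3 and Abcb1b stands away from the others, whereas for Ctss, Cd24 and Ccs the treated samples lie together.

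Over the 69 genes detected in all 4 samples, 51 lay within 1.5-fold with 11R-VIVIT, 26 with CsA and 31 with SB203580. The median size of the log2 change was 0.27, 0.76 and 0.66. Each comparison uses the same untreated sample and 1 treated sample, so these values are set side by side without a test of their difference.

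NFAT proteins bind DNA at the core GGAAA, which was searched on both strands and overlaps the shorter core of ETS factors. These letters are common, and 61.3% of 32851 mouse promoters in RefSeq (GRCm38.p6, from 250 bases before to 50 after the start of the gene) held them on either strand. Of the array genes, 63 matched at least 1 promoter, Mt1a left out. Of their 79 promoters, 47 (59.5%) held the core. Counted by gene, 65.1% of the 63 held the core in at least 1 promoter, which is not comparable with a share of single promoters. By gene, the core was found in 6 of 9 on the higher side, 3 of 7 on the lower side and 27 of 39 within 1.5-fold. These shares describe letters in a window and not binding.

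The promoters of 4 of the genes past 1.5-fold are shown 5′ to 3′ on the minus strand, with the core in capitals. They are the lowest measured gene, Atf3 (chr1:191183284-191183583), the chemokine that crossed the detection limit, Cxcl10 (chr5:92348840-92349139), and the higher genes Socs3 (chr11:117969317-117969616) and Igfbp3 (chr11:7213874-7214173).
Atf3: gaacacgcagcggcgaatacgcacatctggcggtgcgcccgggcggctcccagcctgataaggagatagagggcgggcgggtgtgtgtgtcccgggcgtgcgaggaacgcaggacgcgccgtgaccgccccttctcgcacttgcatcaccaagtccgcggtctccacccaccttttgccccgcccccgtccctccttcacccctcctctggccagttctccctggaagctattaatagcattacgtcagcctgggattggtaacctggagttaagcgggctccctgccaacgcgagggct
Cxcl10: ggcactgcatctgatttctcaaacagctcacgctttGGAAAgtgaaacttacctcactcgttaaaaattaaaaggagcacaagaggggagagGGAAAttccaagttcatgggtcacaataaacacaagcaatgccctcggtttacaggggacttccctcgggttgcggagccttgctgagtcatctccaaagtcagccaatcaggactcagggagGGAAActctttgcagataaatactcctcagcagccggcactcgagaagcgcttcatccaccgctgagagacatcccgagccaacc
Socs3: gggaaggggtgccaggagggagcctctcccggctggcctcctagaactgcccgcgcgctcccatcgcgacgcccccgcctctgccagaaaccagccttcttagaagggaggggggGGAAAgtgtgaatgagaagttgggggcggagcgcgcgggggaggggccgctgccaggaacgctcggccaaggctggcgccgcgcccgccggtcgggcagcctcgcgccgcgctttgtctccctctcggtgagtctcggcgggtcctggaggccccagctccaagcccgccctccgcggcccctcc
Igfbp3: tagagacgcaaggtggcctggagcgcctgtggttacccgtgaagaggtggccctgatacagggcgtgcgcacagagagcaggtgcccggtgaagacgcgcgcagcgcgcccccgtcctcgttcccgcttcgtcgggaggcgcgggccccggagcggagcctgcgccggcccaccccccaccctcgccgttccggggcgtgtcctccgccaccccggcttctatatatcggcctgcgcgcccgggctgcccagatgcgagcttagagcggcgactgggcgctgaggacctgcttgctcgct
The window of Cxcl10 held the core at 3 places and that of Socs3 at 1, while those of Atf3 and Igfbp3 did not hold these letters. These promoters were chosen from genes past 1.5-fold, so how the core falls between the higher and the lower side here is not a result.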

How the data were processed

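Total RNA of MCT cells was extracted with TRIzol, reverse transcribed and run on an RT-PCR array for mouse nephrotoxicity with SYBR green. The authors deposited 1 raw Ct for each gene and sample, without normalization. The instrument, the threshold setting and the number of wells behind a value are not given in the sources used here. The authors' table of fold changes against control holds their own comparison and was not used. All 4 columns match a sample title.

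The log2 change was the Ct of control minus that of 11R, each relative to Actb, with an amplification base of 2. The methods name the housekeeping genes of the array, of which the table used here holds Actb. Ct values of 35 or later were set to 35. A bound counted as past 1.5-fold only where the bound itself was. With 1 sample per condition no test was possible, and precision is limited by that number.

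Apart from 3 genes whose results are not reported here, the genes named were all those past 1.5-fold or with a bound, the extremes of each group, the genes the study names, Tnfrsf12a and those next to 1.5-fold, and for completeness the remaining members of each group. Members, lists and groups were chosen with earlier results of these data known, and 9 genes were added to the groups after the data were seen. The unreported genes were left out of the group values and figures after the data were seen, and they remain in the counts over the whole array. Alternatives were the array median of 69 genes or no gene as reference, a Ct limit of 32 or none, a base of 1.9 and another sorting by Ct. Their use for the position among samples and for the Ct ranges was largely added after seeing the data. Of 84 symbols, 77 matched GRCm38.p6 as symbols, 5 as synonyms and 2 not at all. The calculation was tested on simulated data. Python 3.11.15, numpy 2.4.6, pandas 2.3.3 and matplotlib 3.10.9 were used.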

Additional observations from a re-analysis of the deposited data

How the results depend on the processing

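Relative to the array median (every log2 change higher by 0.0125) or with no reference gene, the counts past 1.5-fold stayed at 13 higher and 9 lower. A Ct limit of 32 left 6 genes at least 1.5-fold higher, 1 at least 2-fold higher and 5 with 11R-VIVIT alone at the edge of the samples, since fewer genes then have a value. With no Ct limit 16 genes were at least 1.5-fold higher, with Sod3 (0.87), Ugt1a6 (0.62) and Uchl1 (1.02) added, and 6 at least 2-fold higher in place of 4. With an amplification base of 1.9, which shrinks every change, 1 gene was at least 2-fold lower in place of 3. Of 348 values of single genes recalculated, 345 were counted as keeping their side of 1.5-fold. Genes that lost their value with the limit of 32 have no entry for that setting among the 348. They include Igfbp3, Ctss, Cxcl10, Cyp2c11, G6pc, Mgp, Aass, Klk1b3 and Gpnmb, all past 1.5-fold in the main setting. The 345 also count bounds inside 1.5-fold with that limit, such as at least 0.13 for Nox4 and 0.08 for Gamt, although these are undetermined. The change of Abcb1b became a bound of at most -0.22 with the limit of 32. The early genes below untreated cells numbered 18 or 19 in every setting. Leaving out a replicate was not possible with 1 sample per condition. No paired analysis was possible because each condition has 1 sample.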
